A study of Homo sapiens with 24 samples.

Results

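GOT1, GOT2, GPT2, GLUL, GLUD1, PC, ALDH18A1 and PYCR1 encode enzymes that make or interconvert aspartate, glutamate, glutamine, alanine and proline. They were taken by gene symbol, as 8 of the 37411 genes of a table of RNA sequencing counts, and all 8 were found and passed the filter on low counts. The cells were PC9, established from a human lung cancer of the non-small cell type, in RPMI medium. Cells without asparagine received either 200 nM ISRIB or vehicle, which was 0.004% DMSO, and cells with asparagine received the same 2 treatments. Each of these 4 conditions was ended 24 h or 6 h after the change of medium, which gave 8 groups of 3 biological replicates. All groups were of this 1 line, and the labels name no genetic change. Whether the ISRIB groups also held DMSO is not given in the labels.

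Aspartate supplies the carbon skeleton of asparagine, and glutamine supplies its amide nitrogen, in a reaction run by asparagine synthetase (ASNS). Aspartate is made from oxaloacetate by the aspartate transaminases GOT1 in the cytosol and GOT2 in the mitochondria, and glutamate is the amino donor. Amino acid shortage activates the kinase GCN2, which phosphorylates eIF2 and slows general translation while the transcription factor ATF4 is made, a program called the integrated stress response. ISRIB binds eIF2B, the exchange factor for eIF2, and blunts that program. ATF4 binds composite elements called CARE in the promoters of its target genes, of which ASNS is a textbook case.

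The 250 bases before the RefSeq start (GRCh38.p14) are shown for GOT1, one of the 2 members that rose early, for its mitochondrial counterpart GOT2, which did not, and for ASNS. Capitals mark a CARE-like motif, TGATGNAA on either strand, and the CCAAT box, CCAAT on either strand.
GOT1: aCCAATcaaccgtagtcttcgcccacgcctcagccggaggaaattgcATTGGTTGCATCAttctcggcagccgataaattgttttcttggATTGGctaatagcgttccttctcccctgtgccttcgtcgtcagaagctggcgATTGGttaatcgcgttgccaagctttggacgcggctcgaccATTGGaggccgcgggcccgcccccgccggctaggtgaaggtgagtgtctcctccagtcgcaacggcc
GOT2: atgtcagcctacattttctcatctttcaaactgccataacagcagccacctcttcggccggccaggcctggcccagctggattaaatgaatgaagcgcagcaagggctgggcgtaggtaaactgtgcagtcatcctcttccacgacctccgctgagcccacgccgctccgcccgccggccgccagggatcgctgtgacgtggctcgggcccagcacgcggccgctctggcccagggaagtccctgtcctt
ASNS: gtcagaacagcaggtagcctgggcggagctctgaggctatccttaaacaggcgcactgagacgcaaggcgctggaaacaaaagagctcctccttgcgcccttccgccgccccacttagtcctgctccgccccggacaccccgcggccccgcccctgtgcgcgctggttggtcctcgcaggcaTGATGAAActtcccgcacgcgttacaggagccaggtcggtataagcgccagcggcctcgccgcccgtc

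These windows lie on the minus strand at chr10:99430625-99430874 for GOT1, chr16:58734317-58734566 for GOT2 and chr7:97872409-97872658 for ASNS. In GOT1 the CARE-like match reads TTGCATCA on the printed strand, from base -198 to -191 relative to the start, and it directly follows 1 of 5 CCAAT boxes, without overlap. In ASNS the match is TGATGAAA, from base -68 to -61. The same motif was found in 3.14% of 35116 promoter windows of this length. Of the other 5 members whose promoter was at hand, GOT2, GLUL, GLUD1, PC and ALDH18A1, none held it, and 2 CCAAT boxes each were found in GLUL and PC. The CCAAT box occurred in 32% of all windows. TGACGTCA, the cyclic AMP response element, was in 1.65% of windows and in none of these. GPT2 and PYCR1 are not among the promoters printed. A match describes letters and not a bound site.

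The libraries held 16737384 to 27495861 counts, and 22911 to 25642 genes had at least 1 count. Values below are counts scaled to library size (CPM) after TMM scaling, and changes are log2 fold changes ± SE from edgeR's quasi-likelihood test over 17409 genes, called where the adjusted p was below 0.05. The epithelial markers EPCAM, KRT7, KRT8, KRT18, KRT19 and CDH1 had medians of 360.8 to 4155 CPM, their sum lying between 8286 and 11464 CPM. Of 6 markers of leukocytes, fibroblasts and endothelium, PTPRC, COL1A2 and COL3A1 stayed at or below 0.398 CPM. COL1A1 had 3.59 to 13.1 CPM and the endothelial gene PECAM1 0.740 to 5.67 CPM. CDH5, also endothelial, moved with time: it had 2.45 to 8.27 CPM in the 24 h libraries and 23.2 to 55.4 CPM in the 6 h libraries, so that the sum of the 6 was 12.2 to 18.9 CPM at 24 h and 28.3 to 63.2 CPM at 6 h. Its part in the differences with time below was not tested.

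Per kilobase of annotated exon, over all libraries, GOT2 was the most abundant member, with a mean of 71.3 ± 6.24 CPM per kb (SD, n = 24). ALDH18A1 followed with 28.5 ± 2.10 and GOT1 with 16.9 ± 3.00. PYCR1 with 9.66 ± 1.69, GLUD1 with 9.59 ± 1.59 and GPT2 with 9.22 ± 3.91 did not differ beyond their spread over all libraries. Their order depended on the group: without asparagine with vehicle at 6 h, GPT2 had 18.9 CPM per kb, against 11.2 for PYCR1 and 9.42 for GLUD1. GLUL had 6.62 ± 1.12, and PC had the lowest level, 3.05 ± 0.588.

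**Figure D1:**
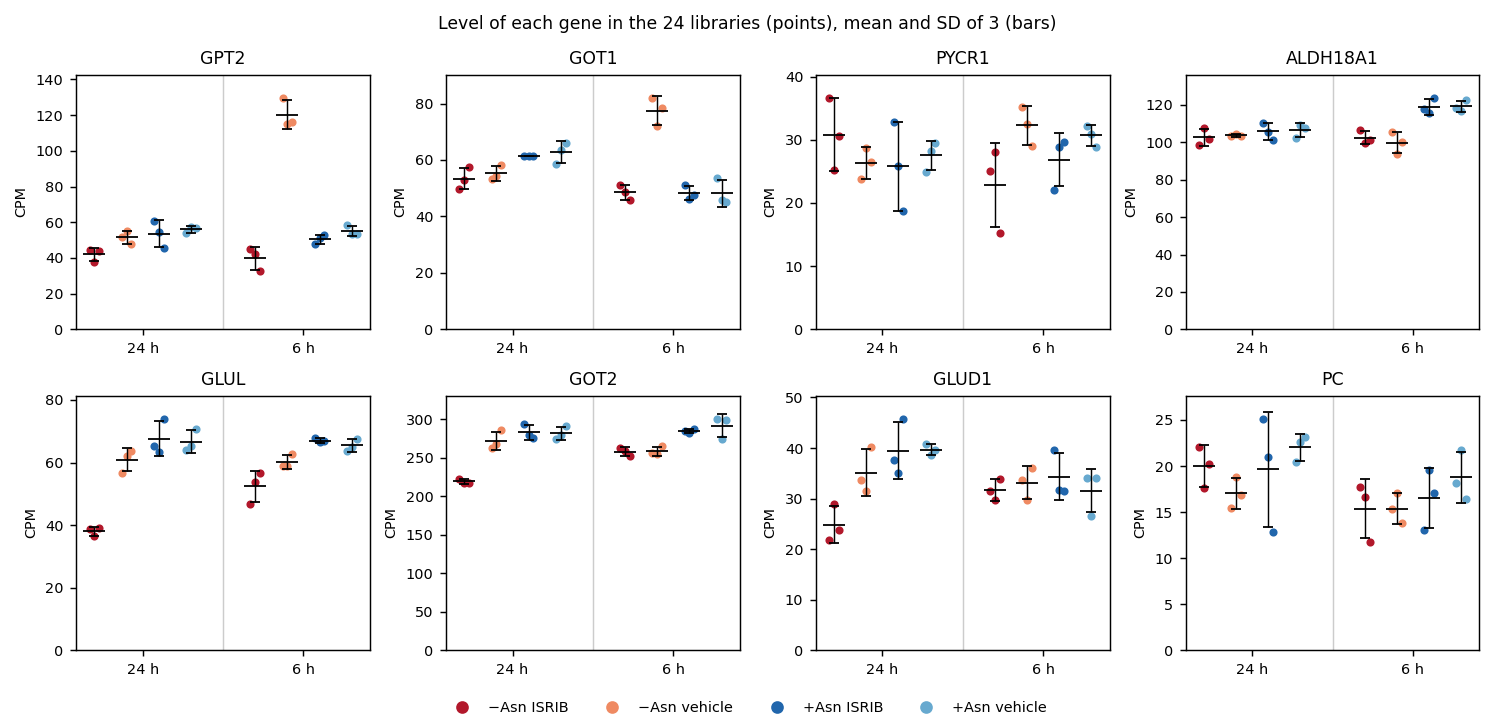
Level of each gene in CPM (linear axis from 0) in every library, with the 24 h groups left of the 6 h groups. Points are libraries, and bars are the mean and SD of 3. GPT2 and GOT1 stand high only in cells without asparagine given vehicle for 6 h (means 120.3 and 77.5 CPM), and GLUL, GOT2 and GLUD1 are lowest in cells without asparagine given ISRIB for 24 h (means 38.1, 219 and 24.8 CPM).

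GPT2 and GOT1 rose after 6 h without asparagine with vehicle, and with ISRIB neither rose. In bulk RNA, fewer cells with a transcript and less of it in each cell cannot be told apart. GPT2 is the mitochondrial alanine transaminase, which moves the amino group of glutamate to pyruvate to make alanine. It had 129.8, 114.9 and 116 CPM without asparagine, against 58.3, 53.7 and 53.3 CPM with asparagine. The groups did not overlap, and GPT2 rose by a log2 fold change of 1.13 ± 0.11 (adjusted p = 7.89e-07), or 2.18-fold.

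With ISRIB for 6 h without asparagine, GPT2 had 44.9, 42.0 and 32.7 CPM, below every vehicle library of either medium. Against vehicle in the same medium it fell by 1.59 ± 0.11 on the log2 scale (adjusted p = 8.56e-09). With asparagine present, GPT2 had 47.7, 50.9 and 52.8 CPM with ISRIB, against the 53.3 to 58.3 CPM of vehicle. The difference between ISRIB and vehicle of -0.13 was not called (95% interval -0.36 to 0.11, adjusted p = 0.956). Withdrawal under ISRIB gave -0.34 ± 0.11, with groups that did not overlap, and was not called (adjusted p = 0.142), but it was under the GC correction (-0.30, adjusted p = 0.00483). The interaction of medium and drug, which is the withdrawal response with ISRIB minus that with vehicle, was -1.47 ± 0.16 for GPT2 (adjusted p = 1.7e-05).

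GOT1 had 82.1, 72.0 and 78.4 CPM without asparagine at 6 h, against 53.6, 45.7 and 45.2 CPM with asparagine, both with vehicle. It rose by 0.69 ± 0.09 (adjusted p = 1.49e-05), or 1.61-fold. Under ISRIB without asparagine it had 51.1, 48.7 and 45.6 CPM, within the range of the fed cells and 0.68 ± 0.09 lower on the log2 scale than vehicle (log2 fold change -0.68, adjusted p = 2.36e-05). Withdrawal under ISRIB changed it by 0.01 (95% interval -0.17 to 0.18), and the interaction was -0.68 ± 0.12 (adjusted p = 0.00389). Fitted to these 4 groups alone, the interaction of GOT1 missed the threshold (adjusted p = 0.0592).

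GOT2, the mitochondrial aspartate transaminase, had 255.4, 254.5 and 264.5 CPM without asparagine and 300.4, 273.8 and 299.3 CPM with it at 6 h with vehicle. Its change of -0.17 ± 0.06 was opposite in sign to that of GOT1 and was not called (adjusted p = 0.123). It was called under a GC correction with the replicate block (-0.16, adjusted p = 0.0231), and by DESeq2 (-0.18, adjusted p = 0.00861).

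Of the 8 members, 2 rose and 1, ALDH18A1, fell after 6 h of withdrawal with vehicle, where 4.57% of all genes tested were called. Under ISRIB against vehicle without asparagine at 6 h, 2 fell and 0 rose, and 2.19% of all genes were called. The interaction at 6 h called 2 members and 0.718% of all genes. The median change over the 8 members was -0.03 for withdrawal and -0.13 for ISRIB, beside 0.01 over all genes in both.

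ASNS itself had 166 ± 13.6 CPM without asparagine and 29.02 ± 2.11 CPM with it at 6 h with vehicle (SD, n = 3 each), a log2 change of 2.52 ± 0.10. ATF4 mRNA had 1107 ± 71.8 and 627 ± 50.2 CPM in the same groups (SD, n = 3 each), a change of 0.82 ± 0.10. Differences between genes were not tested.

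**Figure D2:**
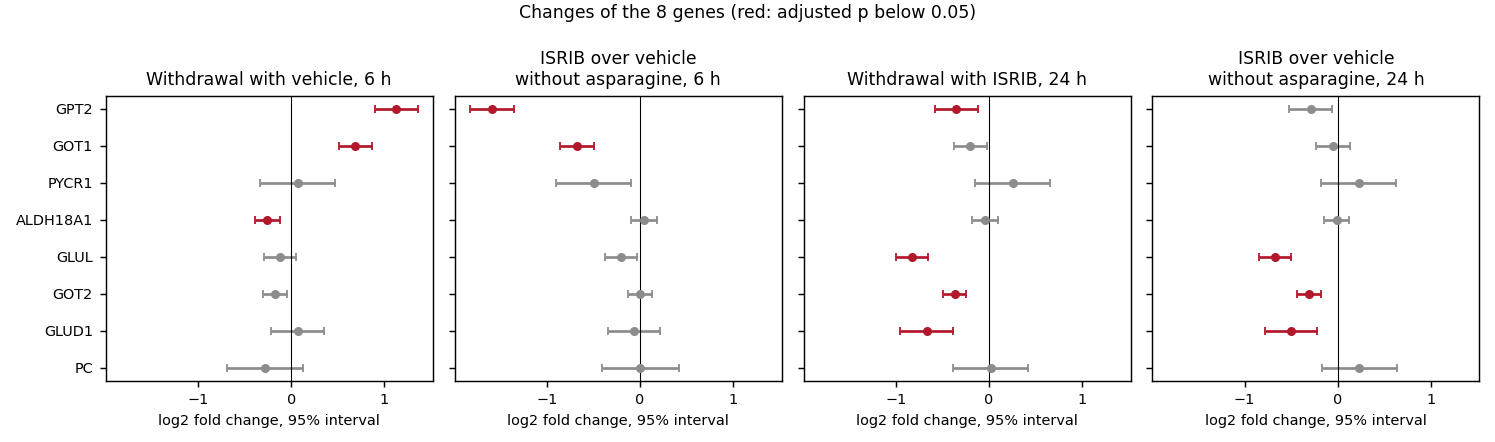
Log2 fold changes of the 8 genes with their 95% intervals in 4 comparisons, red where the adjusted p was below 0.05. At 6 h GPT2 and GOT1 lie right of 0 on withdrawal (1.13 and 0.69) and left of 0 with ISRIB (-1.59 and -0.68). At 24 h GLUL, GOT2 and GLUD1 lie left of 0 in both comparisons.

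The rise was not seen at 24 h. GPT2 had 51.5, 55.0 and 47.8 CPM without asparagine at 24 h with vehicle, against 53.9, 57.3 and 56.7 CPM with asparagine, and the groups overlapped. The change of -0.12 had a 95% interval of -0.35 to 0.11 (adjusted p = 0.714). GOT1 had 53.1, 54.5 and 58.2 CPM without asparagine and 58.6, 63.5 and 66.2 CPM with it (-0.18 ± 0.09, adjusted p = 0.671). No member was called by edgeR or by DESeq2 in withdrawal with vehicle at 24 h, 1 of 8 had an unadjusted p under 0.05, and 0.00574% of all genes were called. The withdrawal response at 24 h minus that at 6 h was -1.25 ± 0.16 for GPT2 (adjusted p = 0.000112) and -0.87 ± 0.12 for GOT1 (adjusted p = 0.000266). These were 2 of 8 members, beside 1.22% of all genes.

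In cells without asparagine given vehicle, the level at 24 h against 6 h was -1.23 ± 0.11 for GPT2 (adjusted p = 7.45e-08) and -0.49 ± 0.09 for GOT1 (adjusted p = 0.000191), where 25.4% of all genes were called. GOT1 also changed with time in fed cells, in the other direction. It had 58.6, 63.5 and 66.2 CPM at 24 h and 53.6, 45.7 and 45.2 CPM at 6 h with vehicle, a change of 0.38 ± 0.09 (adjusted p = 0.00331). With ISRIB and asparagine it had 61.5, 61.5 and 61.2 CPM at 24 h and 51.2, 46.2 and 47.6 CPM at 6 h (0.35 ± 0.09, adjusted p = 0.00686), a call lost in a fit to these groups alone (adjusted p = 0.0942) and with no filter (adjusted p = 0.0814). GOT1 was the 1 member called in either, where 18.8% of genes were called with vehicle and 17.4% with ISRIB. GPT2 changed by 0.02 and 0.09 with time in fed cells, with groups that overlapped.

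GLUL, GOT2 and GLUD1 were lower at 24 h in cells that lacked asparagine and had ISRIB. GLUL encodes glutamine synthetase, which joins ammonia to glutamate. At 24 h without asparagine it had 38.8, 36.4 and 39.1 CPM with ISRIB and 56.8, 62.0 and 63.8 CPM with vehicle. With asparagine it had 65.4, 63.4 and 74.0 CPM with ISRIB and 63.9, 65.4 and 70.8 CPM with vehicle. The 3 libraries without asparagine and with ISRIB lay below all the others. Against vehicle in the same medium GLUL fell by 0.68 ± 0.08 on the log2 scale (log2 fold change -0.68, adjusted p = 8.8e-06), and against ISRIB with asparagine the change was -0.83 ± 0.08 (adjusted p = 4.51e-07). The interaction at 24 h was -0.69 ± 0.12 (adjusted p = 0.000879).

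A smaller difference was measured at 6 h. GLUL had 46.8, 53.7 and 56.6 CPM without asparagine and 67.9, 66.5 and 66.8 CPM with it, both with ISRIB. The change of -0.36 ± 0.08 was called (adjusted p = 0.0193), as 1 of 8 members beside 2.30% of all genes. This call was lost in 4 of 6 fits that left out 1 library, namely any 1 of the 3 with asparagine or replicate 1 without it (adjusted p between 0.0599 and 0.0962), and in a fit to the groups compared alone (adjusted p = 0.553). ISRIB against vehicle without asparagine at 6 h gave -0.20 ± 0.08 (adjusted p = 0.334), and the interaction was -0.235 ± 0.116 (adjusted p = 0.944). Neither was called. Withdrawal with vehicle gave -0.12 ± 0.08 at 6 h (adjusted p = 0.521) and -0.13 ± 0.08 at 24 h (adjusted p = 0.671). These were not called, though their groups did not overlap. In cells without asparagine given ISRIB the level of GLUL at 24 h against 6 h was -0.46 ± 0.08 (adjusted p = 0.000243).

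GOT2 had 222.8, 217.6 and 217.1 CPM without asparagine under ISRIB at 24 h, against 262.3, 267.4 and 285.3 CPM with vehicle in the same medium. With asparagine and ISRIB it had 293.9, 279.6 and 275.1 CPM. None of these groups overlapped with the first. The ISRIB difference was -0.31 ± 0.06 (adjusted p = 0.00116), and withdrawal under ISRIB gave -0.37 ± 0.06 (adjusted p = 0.000182). The interaction, -0.32 ± 0.09, was called (adjusted p = 0.0256). It was lost in a fit to the 4 groups alone (adjusted p = 0.076) and with no filter (adjusted p = 0.277). It was also lost in 3 of 12 fits without 1 library (adjusted p up to 0.0752). The libraries left out there were replicate 2 with asparagine and vehicle, and replicate 3 without asparagine with ISRIB or with vehicle.

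GLUD1, mitochondrial glutamate dehydrogenase, converts glutamate to 2-oxoglutarate and ammonia. It had 21.8, 28.9 and 23.7 CPM without asparagine under ISRIB at 24 h, against 33.6, 31.5 and 40.3 CPM with vehicle. With asparagine it had 37.6, 35.1 and 45.8 CPM with ISRIB. The ISRIB difference was -0.50 ± 0.14 (adjusted p = 0.0117), and withdrawal under ISRIB gave -0.67 ± 0.14 (adjusted p = 0.0012). The first of these was lost without replicate 1 with ISRIB (adjusted p = 0.0768) or replicate 3 with vehicle (adjusted p = 0.0796). The slopes of these libraries on transcript GC content, described below, were 0.21, -0.05 and 0.16 with ISRIB and -0.17, 0.00 and -0.18 with vehicle, and after a correction for GC content the ISRIB difference was -0.42 ± 0.10 (adjusted p = 0.00252). The interaction of -0.49 ± 0.19 missed the threshold (adjusted p = 0.0973). Nor was the ISRIB response of GLUD1 without asparagine at 24 h minus that at 6 h called (-0.44 ± 0.19, adjusted p = 0.157). Its level at 24 h against 6 h in cells given ISRIB without asparagine was not called either (-0.35 ± 0.14, adjusted p = 0.052). That change was called in 7 of 12 alternative settings, DESeq2 among them (-0.36, adjusted p = 0.0388).

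GLUD1 shares sequence with the intronless gene GLUD2 and pseudogenes, which held 33.3% to 42.6% of the summed counts of the family. How reads that match several copies were counted is not given in the sources used here, so the level of GLUD1 alone is uncertain. Summing the copies left the ISRIB difference at 24 h at -0.44 ± 0.11 (adjusted p = 0.00759) and withdrawal under ISRIB at -0.59 ± 0.11 (adjusted p = 0.000575). The summed level at 24 h against 6 h with ISRIB and no asparagine was called too (-0.31 ± 0.11, adjusted p = 0.0348). For GOT2 the pseudogenes held 6.98% to 9.33% and for GLUL 3.32% to 7.64%, and summed values gave the same calls for both genes.

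GPT2 was also lower at 24 h without asparagine under ISRIB, with 44.4, 37.8 and 43.9 CPM, against 60.6, 54.5 and 45.5 CPM with asparagine and ISRIB. The change of -0.35 ± 0.11 was called (adjusted p = 0.0291), but not without replicate 1 with asparagine (-0.25, adjusted p = 0.13). It was also lost without replicate 2 of either group, in the fit to the groups alone (adjusted p = 0.146) and with no filter (adjusted p = 0.059). With the GC correction described below the change was -0.44 ± 0.06 (adjusted p = 1.38e-05). Against vehicle without asparagine, whose libraries had 51.5, 55.0 and 47.8 CPM, the change was -0.29 ± 0.11 (adjusted p = 0.0663). That change was called in 6 of 11 alternative settings, DESeq2 among them (adjusted p = 0.0437), but in 0 of 6 fits that left out 1 library.

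Withdrawal under ISRIB for 24 h thus called 4 of 8 members, all lower, where 22.1% of all genes were called. GOT1 was not called there (-0.20 ± 0.09, adjusted p = 0.0917), with groups that did not overlap. Its change was called lower in 3 of 11 alternative settings, DESeq2 among them (-0.21, adjusted p = 0.045), but in 0 of 6 fits that left out 1 library. The interaction of GOT1 at 24 h was -0.02 (95% interval -0.27 to 0.23). ISRIB against vehicle without asparagine at 24 h called 3, all lower, where 21.7% of genes were called. The interaction at 24 h called 2, beside 9.06% of genes. The medians over the members were -0.28, -0.17 and -0.12, and over all genes they were 0.01, 0.00 and -0.01. These comparisons share libraries and are not independent of each other.

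The ISRIB response without asparagine at 24 h minus that at 6 h separated the members into groups of opposite sign. It was 1.30 ± 0.16 for GPT2 (adjusted p = 3.88e-05) and 0.63 ± 0.12 for GOT1 (adjusted p = 0.00293), which were called lower at 6 h and not at 24 h. It was -0.48 ± 0.12 for GLUL (adjusted p = 0.0164) and -0.31 ± 0.09 for GOT2 (adjusted p = 0.0329), but the call was not firm for either. For GLUL it was lost without replicate 3 given vehicle for 24 h (adjusted p = 0.0506), in the groups compared alone (adjusted p = 0.0532) and with no filter (adjusted p = 0.139). For GOT2 it was lost in 6 of 12 fits without 1 library, with adjusted p up to 0.0959. These were replicates 1 and 3 given ISRIB for 24 h, replicate 3 given vehicle for 24 h, replicate 1 given ISRIB for 6 h, and replicates 1 and 2 given vehicle for 6 h. The GOT2 call was also lost in the groups alone (adjusted p = 0.0795) and with no filter (adjusted p = 0.402). The 4 of 8 members called stood beside 7.59% of all genes. PYCR1 changed by 0.73 ± 0.28 and was not called (adjusted p = 0.107). It was called with no filter (0.75, adjusted p = 0.00768) and with the GC correction and replicate block (0.33, adjusted p = 0.0343). These settings called 2185 of 37411 and 3551 of 17409 genes. In cells without asparagine given ISRIB, 24 h against 6 h called GLUL and GOT2 (-0.23 ± 0.06, adjusted p = 0.00552), 2 of 8 members beside 32.3% of genes. With upper-quartile scaling, which moved the median of all genes to 0.11 in that comparison, the change of GOT2 was -0.13 and was not called.

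ISRIB with asparagine present called no member at 24 h or at 6 h, and 0% of the 17409 genes tested with edgeR at either time. DESeq2, which tested 37410 genes, called 0 as well, and edgeR with no filter on low counts called 8 genes at 24 h and 7 at 6 h, no member among them. Of the 17409 genes, 248 at 24 h and 203 at 6 h had an unadjusted p under 0.05, and none of them was a member. The changes of the members ran from -0.16 to 0.02 at 24 h and from -0.19 to 0.12 at 6 h. At 24 h the lowest, that of PC, was -0.37 without replicate 1 and 0.065 without replicate 3 of the ISRIB libraries with asparagine, and that of PYCR1 was -0.30 without replicate 1. For GLUL at 24 h the 95% interval was -0.15 to 0.19, and for GOT2 it was -0.12 to 0.13.

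Of the 2 enzymes of proline synthesis, ALDH18A1 fell after 6 h of withdrawal with vehicle and PYCR1 was not called, except under the settings given below. ALDH18A1, which turns glutamate into the proline precursor pyrroline-5-carboxylate, had 105.3, 94.0 and 100.3 CPM without asparagine at 6 h with vehicle, against 118.3, 116.8 and 122.4 CPM with asparagine. The change of -0.26 ± 0.07 was called (adjusted p = 0.0268). It was called in just 1 of 6 fits that left out a library, the one without replicate 1 without asparagine, with adjusted p up to 0.157 in the others. With ISRIB at 6 h it had 106.8, 99.7 and 101.5 CPM without asparagine and 117.9, 115.5 and 123.9 CPM with it (-0.22 ± 0.07, adjusted p = 0.107). That change was called in 3 of 11 alternative settings, DESeq2 (-0.21, adjusted p = 0.00882) and the GC correction (-0.21, adjusted p = 0.0161) among them. It was called in 0 of 6 fits that left out 1 library. The interaction at 6 h was 0.04 (95% interval -0.15 to 0.24) and was not called. The groups did not overlap with either treatment, and ISRIB against vehicle without asparagine gave 0.04 (95% interval -0.10 to 0.18). At 24 h the group means lay between 102.8 and 106.5 CPM.

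PYCR1, the mitochondrial reductase that completes proline synthesis, had 25, 28.01 and 15.3 CPM without asparagine under ISRIB at 6 h and 35.2, 32.6 and 29.1 CPM with vehicle. With vehicle and asparagine it had 32.2, 31.0 and 28.9 CPM. The ISRIB libraries lay below the vehicle libraries, but the change of -0.50 ± 0.20 was not called (adjusted p = 0.297), although it was with no filter on low counts (adjusted p = 0.0383). Withdrawal with vehicle at 6 h gave 0.07 ± 0.19 (adjusted p = 0.891).

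PC, pyruvate carboxylase, makes oxaloacetate from pyruvate in the mitochondria and had 11.8 to 25.1 CPM over the libraries. Without a GC correction it was not called in any of the 16 comparisons. Withdrawal with vehicle at 24 h gave 15.5, 18.8 and 16.9 CPM, against 20.4, 22.6 and 23.1 CPM with asparagine (-0.37 ± 0.19, 95% interval -0.77 to 0.03, adjusted p = 0.671). These groups did not overlap, but with the correction for GC content described below the change was -0.18 ± 0.08 (adjusted p = 0.391).

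PC and PYCR1 were the members of highest transcript GC content, 61.2% and 62.4%, and of the widest spread between replicates, 20.0% and 20.2%. GOT2 and ALDH18A1 spread by 3.23% and 3.84%. The libraries differed in how their levels followed GC content, with slopes from -0.38 to 0.22 in log2 units for each 10 points of GC. The most negative slopes belonged to 3 ISRIB libraries, which were the third replicate of fed cells at 24 h (-0.38), the third of asparagine-free cells at 6 h (-0.37) and the first of fed cells at 6 h (-0.20). They were the 3 lowest libraries of all 24 both for PC, with 12.9, 11.8 and 13.1 CPM, and for PYCR1, with 18.7, 15.3 and 22.1 CPM. GLUD1, with the lowest GC content of the members (45.5%), had its highest level, 45.8 CPM, in the first of these.

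**Figure D3:**
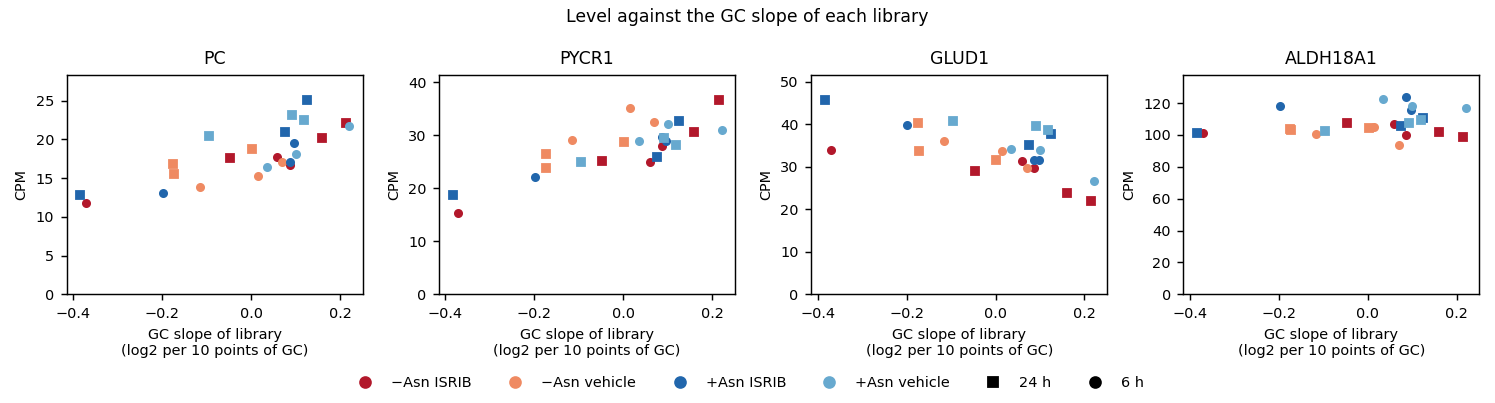
Level in CPM against the slope of each library on transcript GC content, 1 point per library, squares for 24 h and circles for 6 h. PC and PYCR1 are lowest in the 3 libraries at the left end, GLUD1 is highest in the one at -0.38, and ALDH18A1 stays between 94.0 and 123.9 CPM.

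After a correction for GC content in each library the spread was 6.12% for PC, 7.25% for PYCR1 and 5.14% for GPT2, which had 9.99% without it. With the correction PYCR1 was lower with ISRIB than with vehicle without asparagine at 6 h (-0.45 ± 0.09, adjusted p = 0.00141). Together with the replicate block it also rose on withdrawal with vehicle at 6 h (0.24 ± 0.08, adjusted p = 0.0427). Without the 3 libraries the ISRIB difference was -0.28 ± 0.14 and was not called (adjusted p = 0.39). For GPT2 at 24 h the corrected difference between ISRIB and vehicle without asparagine was -0.41 ± 0.07 (adjusted p = 4.34e-05), and the corrected interaction was -0.40 ± 0.09 (adjusted p = 0.00355), against -0.23 uncorrected. PC was higher at 24 h than at 6 h after the correction, by 0.32 ± 0.08 with vehicle and asparagine (adjusted p = 0.003), 0.28 ± 0.08 with ISRIB and asparagine (adjusted p = 0.00866) and 0.28 ± 0.08 with vehicle without asparagine (adjusted p = 0.00911). With ISRIB and no asparagine the corrected change was 0.16 ± 0.08 and was not called (adjusted p = 0.128). The correction raised the number of calls over all genes too, to 1886 for withdrawal with vehicle at 6 h, where 795 were called without it. Together with the block it called 2279 there. In the comparisons of PC with time it called 5719, 5469, 6791 and 7573 of 17409 genes, in the order given. For ISRIB against vehicle without asparagine it called 1132 at 6 h and 5321 at 24 h, and for the interaction at 24 h 3093.

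Lists of enzymes and transporters around the members held 80 genes that were tested. At 6 h withdrawal with vehicle raised 8 of the 80 and lowered 1, beside the 4.57% of all genes called. ISRIB without asparagine raised 1 and lowered 9, beside the 2.19% of all genes called. Among 11 transporters of glutamate, aspartate and glutamine, withdrawal raised 4, namely the neutral amino acid carriers SLC1A4 (1.74 ± 0.16), SLC38A2 (1.44 ± 0.13) and SLC38A1 (0.70 ± 0.12) and the cystine-glutamate exchanger SLC7A11 (1.00 ± 0.15). PSAT1, the phosphoserine transaminase that uses glutamate, rose by 1.51 ± 0.14 and was the 1 gene of 19 called in the glutamine and glutamate list. PCK2, which makes phosphoenolpyruvate from oxaloacetate in mitochondria, rose by 1.66 ± 0.16 and was the 1 of 24 called in the tricarboxylic acid cycle list. Among 16 users of aspartate or asparagine, ASNS and the asparaginyl-tRNA synthetase NARS (0.51 ± 0.12) rose, and the pyrimidine enzyme DHODH fell by 0.48 ± 0.14 on the log2 scale (log2 fold change -0.48, adjusted p = 0.0456).

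At 24 h ISRIB against vehicle without asparagine raised 4 of the 80 and lowered 25, beside the 21.7% of all genes called in either direction. In the glutamine and glutamate list 10 of 19 fell and 0 rose, with a median of -0.39. The GABA transaminase ABAT changed by -0.97 ± 0.09 and the succinate semialdehyde dehydrogenase ALDH5A1 by -0.60 ± 0.09. Ornithine aminotransferase OAT, which links ornithine to the proline precursor, changed by -0.70 ± 0.12 and was the 1 of 7 called in the proline list.

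In the tricarboxylic acid cycle list 7 of 24 fell and 1 rose. The cytosolic isocitrate dehydrogenase IDH1 (-1.34 ± 0.18), the kinase PDK1 that inhibits pyruvate dehydrogenase (-1.003 ± 0.15) and malic enzyme ME1 (-0.89 ± 0.15) fell, and OGDH of the 2-oxoglutarate dehydrogenase complex rose by 0.46 ± 0.10. Of 11 transporters 3 fell, which were the glutamate carriers SLC1A1 (-1.29 ± 0.17) and SLC1A3 (-1.25 ± 0.12) and SLC7A11 (-1.09 ± 0.15), and UCP2 rose by 0.65 ± 0.15. Of the 5 genes of the malate-aspartate shuttle other than GOT1 and GOT2, the carrier SLC25A11 rose by 0.48 ± 0.13 and the other 4 were not called. Of 16 users of aspartate or asparagine 5 fell, ASNS by the most (-1.67 ± 0.10), and CAD, which starts pyrimidine synthesis, rose by 0.51 ± 0.16.

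**Figure D4:**
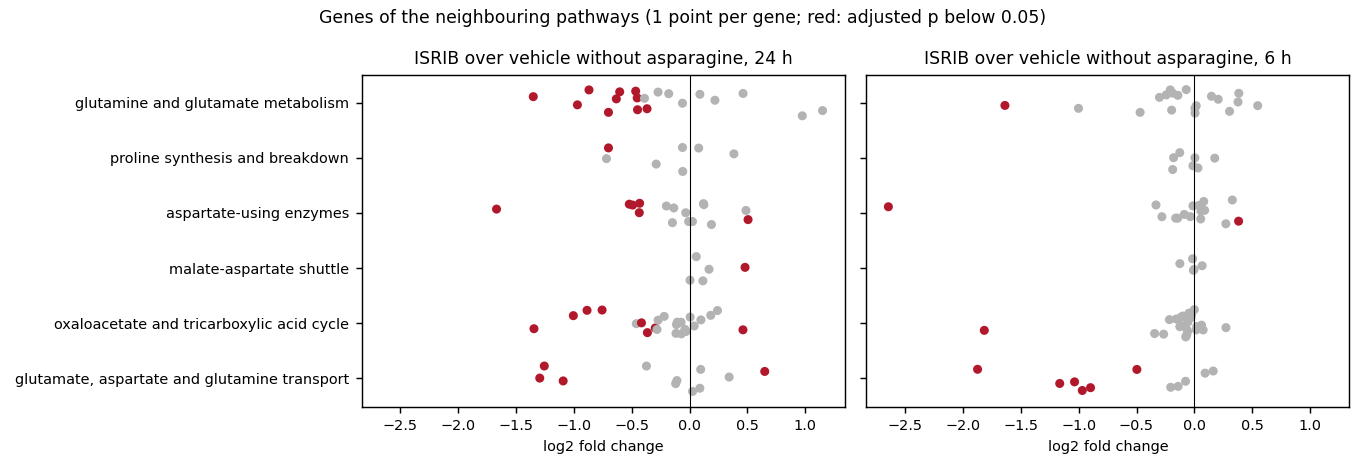
Log2 fold change of ISRIB over vehicle without asparagine for each gene of 6 neighbouring lists, at 24 h (left) and 6 h (right), red where the adjusted p was below 0.05. At 24 h 10 of 19 genes of the glutamine and glutamate list lie left of 0 in red, and at 6 h 1 does. Of 11 transporters 3 do at 24 h and 6 at 6 h.

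Over the 24 libraries Pearson's coefficient of log2 CPM was 0.91 for GOT2 and GLUL and 0.79 for GOT1 and GPT2. It was -0.03 for the transaminases GOT1 and GOT2. Spearman's coefficients were 0.83, 0.67 and -0.003. The first 2 pairs moved in the same groups of these libraries, so their coefficients are not separate evidence. Among 11560 genes ranked, the pattern most like that of GPT2 was that of the bZIP factor JDP2 (0.97) and then the glycine transporter SLC6A9 (0.96). The lysyl-tRNA synthetase KARS (0.95), the mitochondrial glutamyl-tRNA synthetase EARS2 (0.95) and the phosphatidylserine synthase PTDSS1 (0.97) were most like GOT2. For GLUL they were IFT52 (0.96), the aldo-keto reductase AKR1C1 (0.96) and the pseudogene RPL4P4 (0.95). Spearman's coefficients were lower, with 0.82, 0.72 and 0.74 for these genes and GLUL, and 0.86 for JDP2 and GPT2. For GOT1 the likeness was lower, with TACC2 first at 0.88, and for ALDH18A1 lowest, with NOL9 first at 0.85. PC tracked POMT1 (0.96) and PYCR1 tracked MAF1 (0.92), whose GC contents were 56.5% and 60.8%, while GLUD1 tracked POC1B (0.93), at 41.1%. These coefficients describe the 24 libraries, which share groups, depth and GC trend.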

How the data were processed

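PC9 cells were sequenced as 24 libraries, 3 biological replicates in each of 8 groups, grouped by the labels' medium, treatment and time. Per the submitters' processing notes the authors used Bowtie2, featureCounts, DESeq2 and hg38, with no version, strand setting or treatment of reads that match several places stated there. Deposited counts are reads per gene for 37411 genes. A second deposited table holds log2 values after a variance-stabilizing transformation and served as an alternative. Of the identifiers 36620 matched GENCODE release 29 (GRCh38), which gave coordinates, exon length and GC content, and promoters are from RefSeq GRCh38.p14 (6 of 8 members and ASNS).

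Counts were filtered with filterByExpr and scaled with TMM in edgeR 4.0.16 (R 4.3.3), leaving 17409 genes. All libraries entered 1 model of group means, with 16 residual degrees of freedom, and the quasi-likelihood F test was run on 16 contrasts, with Benjamini-Hochberg adjustment over all genes at 0.05. SE is the size of the fold change over the root of F. Spread between replicates is the pooled within-group SD of log2 CPM as a percentage. The p-values measure the spread between cultures of 1 line, and errors at low counts include counting error. The edgeR fit was tested on simulated counts for withdrawal with vehicle, with a dispersion of 0.0176 for every gene and no GC trend. The other tools, the GC correction, the block and the interactions were not tested on simulated data.

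The settings varied were the tool (DESeq2 1.42.0), the scaling (upper quartile, RLE), the filter (none, or 5 CPM in 3 libraries), groups compared alone, a replicate block, limma 3.58.1 on the deposited log2 values, a GC correction (robust spline, 5 degrees of freedom, GC known for 99.5% of genes tested) without and with the block, leaving out the 3 libraries whose GC slope was most negative, and leaving out each library. Summing gene copies was added after seeing the data. Same-numbered libraries deviated together (every correlation above 0.1) in 3 of 12 comparisons of 2 groups: withdrawal with vehicle at 6 h and 24 h and ISRIB without asparagine at 6 h. What a replicate number marks is not given in the labels.

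All members are described. Of the neighbouring lists, the genes with the smallest adjusted p were named, apart from a gene that is not reported here, and the 3 genes most alike by Pearson's coefficient among those with a mean of at least 5 CPM. Members, lists and comparisons were chosen with earlier results of these data known.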

Additional observations from a re-analysis of the deposited data

Results flagged for a closer look

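Effects of the same contrast differed between treatments or times for 4 members, each by a test of the difference itself with edgeR over all genes. The withdrawal response with ISRIB minus that with vehicle at 6 h was -1.466 for GPT2 and -0.680 for GOT1, and at 24 h it was -0.693 for GLUL and -0.316 for GOT2. The vehicle withdrawal response at 24 h minus that at 6 h was -1.248 for GPT2 and -0.869 for GOT1. The ISRIB response without asparagine at 24 h minus that at 6 h was 1.300 for GPT2 and 0.625 for GOT1, against -0.475 for GLUL and -0.308 for GOT2. All values are log2 differences. Both calls of GOT2, and that of the ISRIB response of GLUL between times, were lost with no filter and in the groups compared alone. In fits without 1 library the GOT2 calls held in 9 of 12 for the interaction and 6 of 12 for the times. That of GLUL between times held in 11 of 12. The interaction of GOT1 at 6 h was lost in the groups alone. No test of single outlying libraries was made.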

How the results depend on the processing

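Among the 128 tests of members 29 were called. The share of all genes called ran from 0% for ISRIB with asparagine to 32.3% for time without asparagine with ISRIB. The comparisons share libraries, so the 128 tests are not independent. Whether members were called more often than other genes was not tested. Of the 29 calls, 19 held under every alternative setting, 22 in every fit without 1 library and 18 under both, and no called value changed sign. With no filter on low counts, ALDH18A1 lost its call on withdrawal with vehicle at 6 h (adjusted p = 0.449). GOT2 lost its call under ISRIB without asparagine at 24 h (adjusted p = 0.0677). That setting tested 37411 genes, lost 9 calls of members and gained 3. PYCR1 under ISRIB without asparagine at 6 h was among those gained (adjusted p = 0.0383). The cause of these and of the other changes was not tested. With no filter, 186 of all genes were called in withdrawal with vehicle at 24 h, against 1 with it, and still no member.

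Members called for withdrawal with ISRIB at 6 h were 1, but 2 by DESeq2 and 3 with the GC correction (without or with the block). They were 0 with no filter or in the groups alone, and 0 to 1 without 1 library. Over all genes 400 of 17409 were called, and 691 of 14926 by DESeq2. The GC correction called 1503 of 17409, or 1867 with the block. No filter called 469 of 37411 and the groups alone 0 of 16059. Withdrawal with vehicle and ISRIB without asparagine at 6 h had 3 and 2, but 5 and 4 with the GC correction and replicate block. Of all 17409 genes, 795 and 381 were called there, and 2279 and 1450 with the correction and block. The groups compared alone gave 1 for the interactions at 6 h and 24 h (no filter gave 1 at 24 h). They gave 2 for the difference of the ISRIB response between times and 1 for time without asparagine with ISRIB. In these 4 comparisons the groups alone called 72 of 16644, 1171 of 17019, 950 of 16962 and 3365 of 16299 genes. The fit to all groups called 125, 1577, 1322 and 5622 of 17409. No filter called 2556 of 37411 genes for the interaction at 24 h, a smaller share than the 1577 of 17409 with the filter. Without 1 library the members called ranged from 1 to 3 for the interaction at 24 h. The range was 2 to 4 for the difference between times and 2 to 4 for time without asparagine with ISRIB. Time with asparagine had 1 call with each treatment. With vehicle it had 2 by DESeq2, upper-quartile scaling, 5 CPM in 3 libraries, groups alone or without the 3 libraries of negative GC slope. It had 4 with the GC correction, without or with the block. Of all genes it called 3275 of 17409. DESeq2 called 3474 of 18552, upper-quartile scaling 3511 of 17409 and 5 CPM in 3 libraries 2863 of 12174. The groups alone called 4331 of 16361, and the fit without the 3 libraries 5203 of 17672. The GC correction called 5719 of 17409 genes, and 6194 with the block. With ISRIB it had 2 by DESeq2, 3 with the GC correction, without or with the block, and 0 with no filter or in the groups alone. Of all genes it called 3024 of 17409, and 3299 of 17827 by DESeq2, 2902 of 37411 with no filter and 967 of 16322 in the groups alone. The GC correction called 5469 of 17409 genes, and 5947 with the block.

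The replicate block lost no call and gained GPT2 under ISRIB without asparagine at 24 h (-0.29, adjusted p = 0.049). It also gained GLUD1 with time without asparagine and with ISRIB (-0.34, adjusted p = 0.0417). With the block the calls over all genes rose from 3778 to 4366 and from 5622 to 6084 in these comparisons. Of 24 libraries 16 correlated best with one of their own number. PC, with 182 to 604 counts a library, had the fewest counts of the members.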
